A study of Mus musculus with 18 samples.

Results

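The genes described here encode the nuclear subunits of the 5 complexes of oxidative phosphorylation. They were chosen by symbol, as the Nduf, Sdh, Uqcr, Cox and Atp5 genes of complexes I to V, and by level, with at least 1 TPM (transcript level scaled to gene length and to a fixed total per sample) in 3 or more of the 18 samples. The symbols matched 88 of the 25239 genes in the expression table, and 82 of them reached that level. Complex I had 36 members, complex II 4, complex III 8, complex IV 17 and complex V 17. Ndufa4, which was named for complex I and is now placed with complex IV, was counted with complex IV. The other 6 matched genes, Cox7b2, Ndufa11b, Cox8b, Ndufa4l2, Ndufs5 and Cox8c, stayed under the minimum. Of the 82 members, 77 were at or above 1 TPM in all samples, and Cox6b2 reached the minimum only through samples with restored p53.

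The RNA came from 3 mouse small cell lung cancer (SCLC) lines, 4711-1, 4711-18 and 4716-11, of the class called Type D, whose cells die by a lytic, necrotic route some days after p53 is switched back on. The lines derive from tumors in mice that carried floxed Rb1 and Rbl2, a Trp53 allele with a reversible gene trap (XTR) on both copies and a FlpO-ER recombinase at Rosa26, in which adenoviral Cre driven by the CMV promoter had deleted Rb1 and Rbl2 and closed the trap on Trp53. All samples therefore lack Rb1 and Rbl2, and Control samples (vehicle) have trapped Trp53, while in Restored samples 4-hydroxytamoxifen (4-OHT) had activated FlpO-ER for 72 h and freed Trp53. Each line also carried a lentiviral Cas9 vector with 1 of 3 sgRNAs, the control sgBgal, or sgPpia#3.2 or sgPpia#4.1 against Ppia, the gene of cyclophilin A. Each of the 6 conditions had 3 samples, 1 per line, so the cell line was the replicate. No group received 4-OHT without a restorable Trp53 allele, so restored p53 and 4-OHT itself cannot be told apart.

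Oxidative phosphorylation passes electrons from NADH through complex I, and from succinate through complex II, to ubiquinone, then through complex III to cytochrome c and through complex IV to oxygen. Complexes I, III and IV pump protons across the inner mitochondrial membrane, and complex V, the ATP synthase, lets them flow back through a rotating ring of c subunits that drives its catalytic head. Most subunits are encoded in the nucleus, a smaller set in mitochondrial DNA, and several complex IV subunits have separate isoform genes for heart and muscle, lung or testis. The mitochondrial genes were not analysed here.

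The labels were checked against their own genes. Trp53 was at 5.45 to 8.41 TPM in the Control samples and at 181 to 236 in the Restored samples, and Cdkn1a, the p53 target that encodes p21, was at 99.4 to 369 and at 1565 to 3806. Ppia lay between 658 and 1233 TPM with sgPpia#3.2 and between 1191 and 1952 with sgPpia#4.1, the latter overlapping the range of 1551 to 2849 with sgBgal. Within each line and p53 state, however, Ppia was lower with either Ppia sgRNA than with sgBgal. A cut by Cas9 need not lower the transcript, so this level does not measure the protein. The Control sample of line 4711-18 with sgPpia#3.2 stood apart, with Cdkn1a at 369 TPM against 99.4 to 171 in the other 8 Control samples, so results that rest on it are also given without that pair. Of the neuroendocrine SCLC markers, Calca, Chga, Neurod1 and Dll3 were under 1 TPM in every sample, while Syp was at 3.03 to 7.12 TPM and Ncam1 at 6.90 to 29.7. A summed list of 6 leukocyte markers was at 2.63 to 7.54 TPM in Control and 22.5 to 40.6 in Restored samples, mostly from Cd68, while Ptprc, Adgre1, Csf1r and Cd3e were under 1 TPM throughout.

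The respiratory chain was strongly expressed in every sample, and complexes IV and V had the highest levels. The 82 members together made up 2.18% to 3.48% of all TPM in a sample. Their share was 2.75% ± 0.41 (SD, n = 9) in Control and 2.76% ± 0.53 (n = 9) in Restored samples. TPM is scaled to transcript length, so levels of different genes can be set side by side. The median of the members' mean levels was 167 TPM for complex I, 226 for complex II, 266 for complex III, 419 for complex IV and 351 for complex V. The spread within each complex was wide next to these steps, and only complex IV ran from under 1 TPM (Cox6b2, 0.589) to 2159 (Cox6a1).

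The highest members of complexes II to V were all widely expressed forms. Sdhc, a membrane anchor of succinate dehydrogenase, had a mean of 342 TPM, and Uqcrh, the hinge protein of complex III, had 405. Cox6a1, the widely expressed isoform of subunit 6a, had 2159, and Atp5b, the catalytic β subunit of ATP synthase, had 1412. At the other end stood gene copies and tissue isoforms, such as Ndufb4c at 3.24 TPM. Ndufs5, whose protein is part of every complex I, was listed at no more than 0.0946 TPM in any sample, while Ndufs5-ps, annotated as a copy of it, was at 31.7 to 85.1 TPM. How the authors' counting shared reads between such copies is unknown, so the levels of Ndufs5 and Ndufs5-ps are uncertain.

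**Figure D1:**
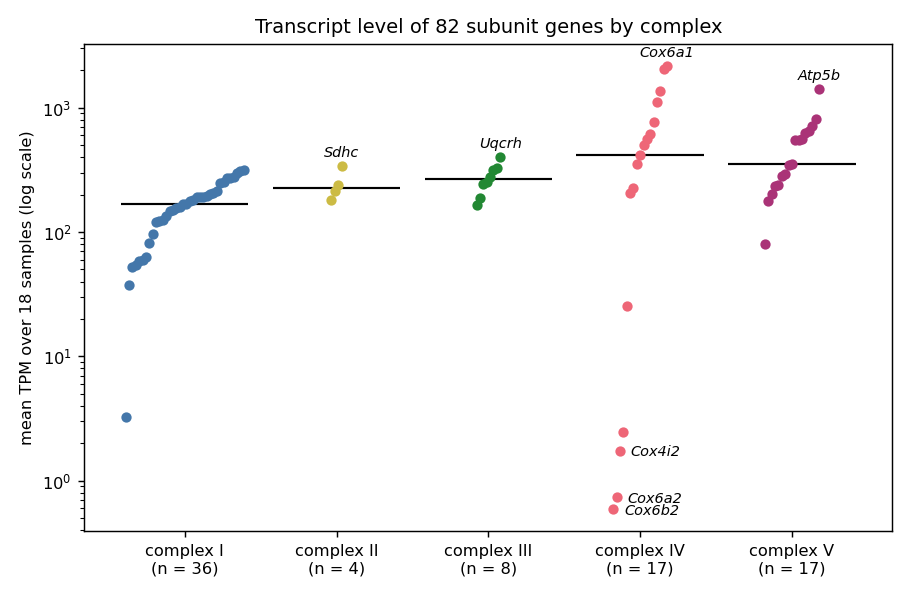
Mean TPM over the 18 samples (log axis) of the 82 subunits, grouped by complex I to V and ordered by level within each. Each point is 1 gene and each bar the median of its complex, from 167 TPM in complex I to 419 TPM in complex IV, where 3 named tissue isoforms lie lowest.

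The first question was whether the subunits changed when p53 was restored. Averaged over the 3 sgRNAs, none of the 82 members passed both limits of the test, a Benjamini-Hochberg adjusted p under 0.05 in limma and a log2 fold change of at least 1, against 8.93% of the 12828 genes tested. At the adjusted p alone, 5 members rose and 7 fell, 12 in all or 14.6% of the members, against 39.1% of all genes, of which 27.9% were higher and 11.2% lower. At an unadjusted p under 0.05 there were 20 members (24.4%) and 47.8% of all genes. The members that rose were Cox6b2, Ndufb6, Cox7a1, Cox4i1 and Ndufc2, and those that fell were Atp5g1, Atp5a1, Sdhd, Cox7b, Atp5g2, Uqcrc2 and Atp5b. Cox6b2 had reached the minimum only through Restored samples, so it could enter the test only by being higher there. The count of 12 was 6, 4 or 8 without line 4711-1, 4711-18 or 4716-11, and 13 without the sgPpia#3.2 pair of line 4711-18. The average takes the 3 sgRNAs of a line as separate samples, so its p-values rest on 3 lines and not on 9 independent pairs. These are samples of bulk RNA, in which fewer cells of a kind and less RNA per cell cannot be told apart.

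The cell line marked pairs of samples, and a fit with the line as a block called more genes of all kinds. With this replicate block 17 members rose and 22 fell at the adjusted p alone, 39 in all or 47.6%, against 63.4% of all genes, of which 44.1% were higher and 19.3% lower. In both fits the share of members was below that of all genes, and more members fell than rose, where more genes of the table were higher than lower. The median log2 fold change of the members was -0.05 (-0.11 without the sgPpia#3.2 pair of line 4711-18) against 0.17 for all genes, and 38 of 82 members (46.3%) had a positive value against 65.2% of all genes. Rescaling the samples by median-of-ratios factors (0.85 to 1.04 in Control, 0.99 to 1.25 in Restored samples) took out this general shift of 0.17. On that scale 2 members rose and 17 fell without the block, beside 18.1% of all genes higher and 18.9% lower, and 5 rose and 40 fell with it, beside 30.4% and 30.9%.

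**Figure D2:**
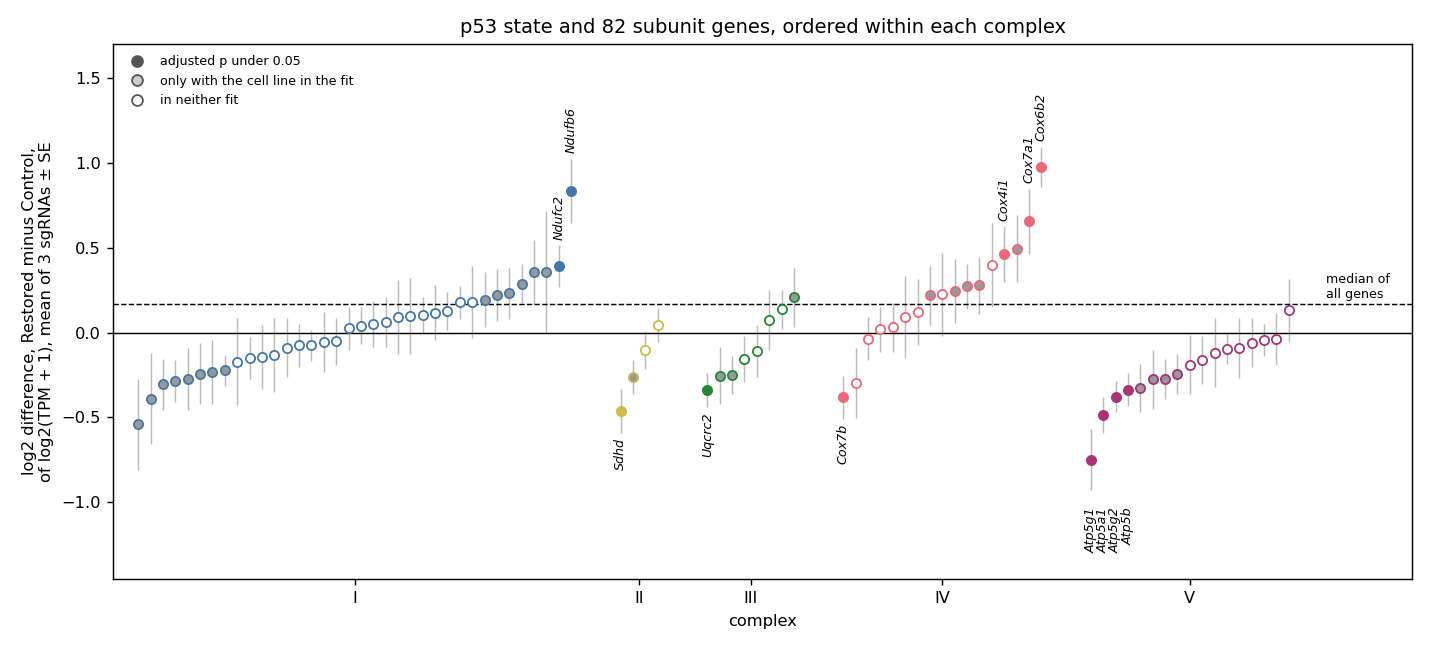
Log2 difference of each of the 82 subunits between p53 states (Restored minus Control on the log2(TPM + 1) scale, mean of 3 sgRNAs, bars ± SE), ordered within each complex. Filled points in color passed an adjusted p under 0.05 in limma, gray ones only with the cell line in the fit, and the dashed line is the median of all genes, 0.17. Most of complex IV lies above 0 and most of complex V below it.

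Promoters of 4 members that passed the test are shown as context, 2 genes that rose and 2 that encode the same protein and fell. RefSeq gave a promoter window by symbol for 65 of the 82 members. Each sequence is the 150 bases before the annotated start of the gene in GRCm38.p6, written 5′ to 3′ on the gene's strand, which is the minus strand for all 4. They lie at chr4:40279422-40279571 (Ndufb6), chr7:4753095-4753244 (Cox6b2), chr11:96075632-96075781 (Atp5g1) and chr15:102671048-102671197 (Atp5g2). Capitals mark a GC box (GGGCGG or its reverse complement) in Ndufb6, CCAAT boxes (CCAAT or its reverse complement) in Cox6b2 and Atp5g1, and an NRF1 motif (GCATGCG on both strands, overlapping) in Atp5g2.
Ndufb6: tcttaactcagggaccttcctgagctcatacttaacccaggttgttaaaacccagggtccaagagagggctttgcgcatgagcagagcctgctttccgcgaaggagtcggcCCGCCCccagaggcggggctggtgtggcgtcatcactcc
Cox6b2: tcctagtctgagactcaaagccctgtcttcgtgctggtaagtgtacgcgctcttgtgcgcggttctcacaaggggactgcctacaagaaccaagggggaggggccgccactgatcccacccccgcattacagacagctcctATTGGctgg
Atp5g1: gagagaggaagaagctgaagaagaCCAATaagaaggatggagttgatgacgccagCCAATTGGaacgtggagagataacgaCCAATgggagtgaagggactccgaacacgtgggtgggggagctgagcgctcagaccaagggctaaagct
Atp5g2: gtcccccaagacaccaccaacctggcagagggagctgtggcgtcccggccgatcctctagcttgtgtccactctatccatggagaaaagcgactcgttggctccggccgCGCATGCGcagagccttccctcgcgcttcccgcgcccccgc
The CCAAT boxes of Atp5g1 numbered 4, of which 1 pair overlapped as a palindrome. The motifs were searched on both strands of the whole window from 250 bases before to 50 after each gene start. The NRF1 motif was in 16.9% of the 65 member windows and 7.26% of the windows of 10017 genes tested, and the YY1 motif AAGATGG in 16.9% and 8.33%. The ETS motif CCGGAAG was in 26.2% and 20.3%, CCAAT in 44.6% and 43.1%, and the GC box in 41.5% and 68.7%. The p53 decamer motif was in 4 of the 65 member windows, 6.15% against 8.18% of the genes tested, and in none of the called members that had a window. Such matches describe letters in the window and no more.

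In complex V, the ATP synthase, nearly all log2 fold changes were below 0. Of its 17 members, 16 had a negative log2 fold change, with a median of -0.19, and 4 fell at the adjusted p alone (11.2% of all genes were lower). With the replicate block 8 fell (19.3%), and with rescaling 8 fell without the block (18.9%) and 14 with it (30.9%). All 5 genes of the F1 head and central stalk were negative, with a median of -0.33, as were all 3 genes of the c ring, with a median of -0.38. Atp5j, a stator subunit, was the single positive one at 0.13.

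The 3 c-ring genes encode the same mature protein behind different import sequences. Atp5g1 was at 147, 245 and 288 TPM (lowest, median and highest of 9) in Control and at 95.0, 140 and 164 in Restored samples. It was lower in all 9 pairs of line and sgRNA, although the ranges of the groups overlapped slightly, and it fell by 0.75 on the log2 scale (SE 0.18, adjusted p = 0.00416 in limma). Atp5g2 went from 503, 605 and 752 TPM to 417, 475 and 526, also lower in all 9 pairs, and fell by 0.38 (SE 0.09, adjusted p = 0.0042). Atp5g3, the highest of the 3 at a mean of 710 TPM, had a log2 fold change of -0.09 (SE 0.18, adjusted p = 0.717). The mix of the 3 transcripts therefore differed between the p53 states. Atp5g1 gave 14.1% ± 1.39 (SD, n = 9) of subunit c TPM in Control and 10.2% ± 1.37 in Restored samples, lower in 9 of 9 pairs, and Atp5g3 went from 46.0% ± 3.99 to 52.5% ± 3.44, higher in 9 of 9.

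Both main chains of the catalytic head fell as well. Atp5a1, the α subunit, was at 782, 925 and 1104 TPM in Control and at 546, 670 and 835 in Restored samples. It was lower in all 9 pairs, with a small overlap between groups, and fell by 0.48 (SE 0.11, adjusted p = 0.00221). Atp5b, the β subunit, went from 1192, 1626 and 1846 TPM to 1070, 1218 and 1495, lower in all 9 pairs, and fell by 0.34 (SE 0.10, adjusted p = 0.0143). Atp5c1, the γ subunit of the central stalk, had a log2 fold change of -0.28 (SE 0.12) at an adjusted p of 0.0768, and 0.00555 with the replicate block. Atp5a1 shares 158 bases with Haus1 on the other strand, and the counting is not stated to use strand. Haus1 was at 11.6 to 22.9 TPM, far under Atp5a1.

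Complex IV, cytochrome c oxidase, went the other way. Of its 17 members, 14 had a positive log2 fold change, with a median of 0.23, and 3 rose and 1 fell at the adjusted p alone, where 27.9% of all genes were higher and 11.2% lower. With the replicate block 8 rose and 1 fell, where 44.1% were higher and 19.3% lower. After rescaling, the median was 0.03, close to that of all genes. Then 1 rose and 1 fell (18.1% and 18.9% of all genes), or 3 and 1 with the block (30.4% and 30.9%). The higher level of complex IV as a whole therefore depends on the scaling. Cox6b2 is counted among those that rose in each of these fits, and it is the 1 that rose after rescaling. It passed the minimum only through its Restored samples, so its call supports nothing further. Its share of all TPM was 0.958% ± 0.179 in Control and 1.11% ± 0.26 in Restored samples, higher in 7 of 9 pairs, while that of complex V was 0.872% ± 0.115 and 0.744% ± 0.118, lower in 8 of 9.

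In complex IV 1 gene was near 0 in Control samples. Cox6b2, the testis isoform of subunit 6b, was listed in the Control samples of lines 4711-1, 4711-18 and 4716-11 at 0.0853, 0.145 and 0 TPM with sgBgal, at 0, 0.0786 and 0.0542 with sgPpia#3.2 and at 0.0537, 0 and 0.119 with sgPpia#4.1. In the Restored samples of the same lines it was at 1.58, 0.449 and 1.13 TPM with sgBgal, at 0.787, 1.81 and 1.10 with sgPpia#3.2 and at 1.16, 1.29 and 0.777 with sgPpia#4.1. It was the only member whose groups did not overlap, 1 of 82 (1.22%) against 11.2% of all genes, and it rose by 0.98 on the log2(TPM + 1) scale (SE 0.12, adjusted p = 1.88e-05), a scale that understates changes at so low a level. Because Cox6b2 passed the minimum only through its Restored samples, it could enter the test only by being higher there, and its p and the lack of overlap support nothing further. Of 6 germ cell markers, 5 were under 1 TPM in every sample, and the sum of the 6 was 0.32 to 1.42 TPM in Control and 0.59 to 1.83 in Restored samples. The sixth, Sycp3, a protein of the synaptonemal complex, was at 0.287 to 1.65 TPM and rose by 0.47 (adjusted p = 0.00713 in limma), and its bearing on Cox6b2 was not tested. Even so, Cox6b2 made up 0.207% ± 0.085 (SD, n = 9) of subunit 6b TPM in Restored samples, and Cox6b1, the common isoform at 424 to 711 TPM, supplied the rest.

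Cox7a1, the heart and muscle isoform of subunit 7a, was at 9.10, 20.6 and 33.3 TPM in Control and at 20.9, 28.1 and 42.1 in Restored samples. It was higher in all 9 pairs with overlapping groups, and rose by 0.65 (SE 0.19, adjusted p = 0.0141), which was 0.46 with an adjusted p of 0.0847 after rescaling. The summed list of muscle and heart markers was at 19.9 to 389 TPM in Control and 17.7 to 647 in Restored samples, with Tnnt2 its main source in most of them. Of its 4 tested genes none rose and Acta1, skeletal muscle actin, fell by 1.05 (adjusted p = 0.00603 in limma). With the replicate block Myh7 and Myh6, myosin heavy chains of the heart, rose by 0.64 and 0.22 (adjusted p = 0.00792 and 0.0275 in limma), and the list's part in the level of Cox7a1 was not tested. The other tissue isoforms did not pass: Cox4i2, the lung isoform of subunit 4, had a log2 fold change of 0.40 (adjusted p = 0.22) at 0.265 to 4.04 TPM, and Cox6a2, the heart and muscle isoform of subunit 6a, had -0.30 (adjusted p = 0.275). The highest value of Cox6a2, 2.84 TPM, was in the Control sample of line 4711-18 with sgPpia#3.2, where the other Control samples were at 0.298 to 1.15. Its fold change without that pair is not given here.

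Among the common subunits Cox4i1 rose and Cox7b fell. Cox4i1, the common isoform of the regulatory subunit 4, was at 1395, 1650 and 2203 TPM in Control and at 1737, 2168 and 3364 in Restored samples. It was higher in all 9 pairs and rose by 0.46 (SE 0.17, adjusted p = 0.0385), or 0.26 with an adjusted p of 0.32 after rescaling, and 0.43 with 0.0917 without the sgPpia#3.2 pair of line 4711-18. It lies on the same strand as Gm20388 over 5986 bases and opposite Emc8, which was at 18.9 to 28.6 TPM. Cox7b, a small structural subunit, went from 185, 234 and 303 TPM to 123, 177 and 227, lower in 8 of 9 pairs, and fell by 0.38 (SE 0.13, adjusted p = 0.0287). Cox6a1, Cox7a2, Cox7a2l and Cox8a had log2 fold changes of 0.22, 0.28, 0.27 and 0.25 and passed only with the replicate block, at adjusted p from 0.0103 to 0.0474.

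**Figure D3:**
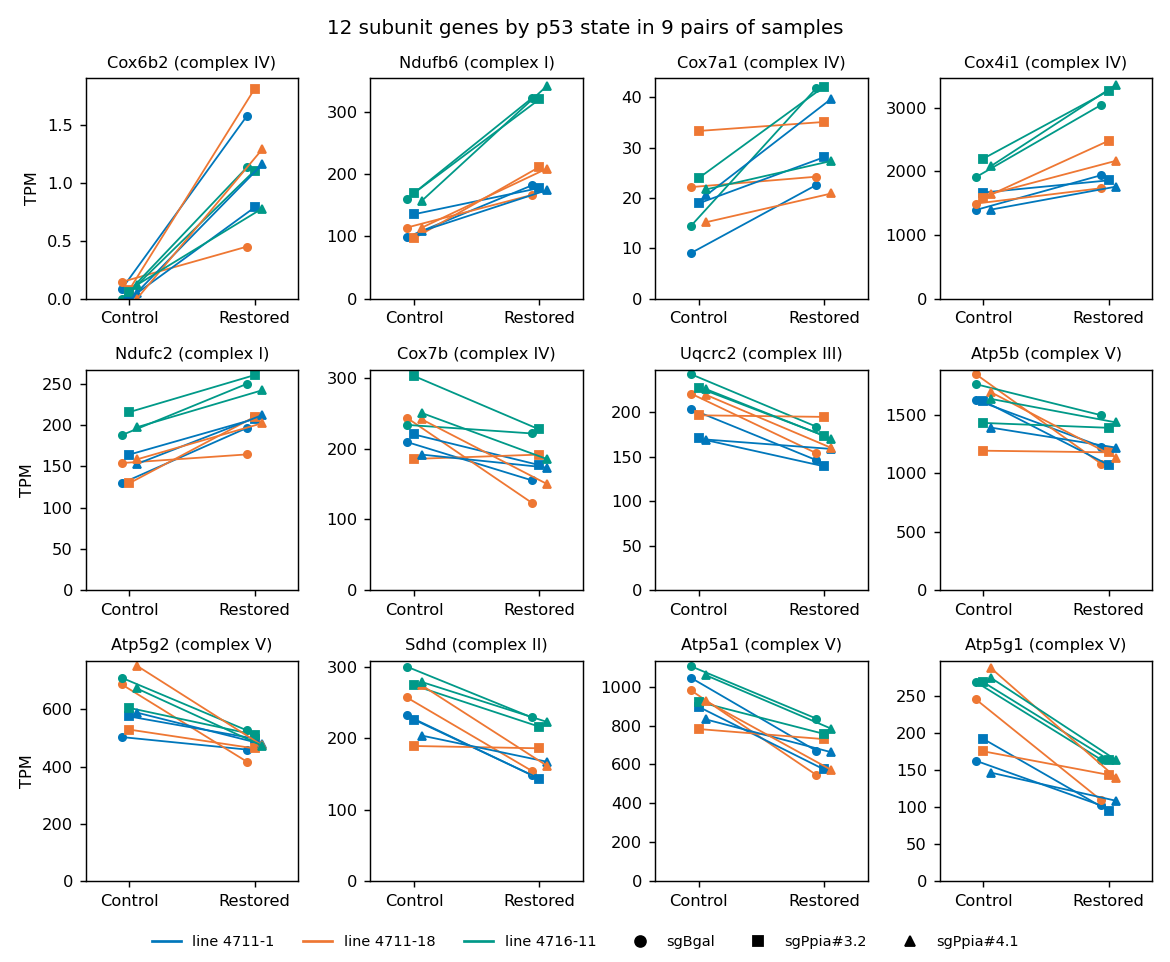
TPM (linear axes from 0) of the 12 subunits that passed an adjusted p under 0.05 in the average over sgRNAs. Each line joins the Control and Restored samples of 1 of the 9 pairs, colored by cell line and marked by sgRNA. All 9 lines slope up for Ndufb6, Cox7a1 and Cox6b2 and down for Atp5g1 and Atp5a1.

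Complex I was split. Of its 36 members, 19 had a positive and 17 a negative log2 fold change, with a median of 0.03, and 2 rose and none fell at the adjusted p alone, beside 27.9% of all genes higher and 11.2% lower. With the replicate block 8 rose and 8 fell (44.1% and 19.3% of all genes), and with both block and rescaling 2 rose and 17 fell (30.4% and 30.9%). Both genes that rose in the unblocked fit encode accessory subunits of the membrane arm. Ndufb6 was at 97.0, 114 and 170 TPM in Control and at 167, 209 and 341 in Restored samples. It was higher in all 9 pairs, its groups touched only at their edges, and it rose by 0.83 (SE 0.19, adjusted p = 0.00313). Smim27, which shares 350 bases with it on the other strand, was at 0 to 3.90 TPM. Ndufc2 went from 130, 159 and 216 TPM to 165, 210 and 261, higher in all 9 pairs, and rose by 0.39 (SE 0.12, adjusted p = 0.0217), or 0.19 with an adjusted p of 0.372 after rescaling.

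The catalytic core of complex I, which carries the flavin and the iron-sulfur clusters, had a median of -0.17, with 5 of 7 members negative. None passed without the block, and 3 of the 7, Ndufs8 and Ndufv2 included, fell with it, where 19.3% of all genes were lower. Ndufs8, an iron-sulfur subunit, was at 86.5, 129 and 216 TPM in Control and at 61.9, 87.1 and 150 in Restored samples. It was lower in all 9 pairs, yet the lines differed so much that the groups overlapped widely, with a log2 fold change of -0.54 (SE 0.27, adjusted p = 0.126 in limma, 7.04e-06 with the replicate block). The 27 accessory subunits had a median of 0.06, and with the block 8 rose and 5 fell, where 44.1% of all genes were higher and 19.3% lower.

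Complexes II and III had few members and low medians. Complex II had a median of -0.18 with 3 of 4 members negative. Sdhd, a membrane anchor that helps to bind ubiquinone, was at 189, 257 and 300 TPM in Control and at 144, 167 and 229 in Restored samples, lower in all 9 pairs, and fell by 0.46 (SE 0.13, adjusted p = 0.0118). Sdhb, the iron-sulfur subunit, just missed the threshold at -0.26 (SE 0.10, adjusted p = 0.0518, and 0.00204 with the block), and Sdha, the flavoprotein, had 0.04 (adjusted p = 0.758). Complex III had a median of -0.13 with 5 of 8 members negative. Uqcrc2, a core protein, went from 169, 220 and 243 TPM to 139, 160 and 195, lower in all 9 pairs, and fell by 0.34 (SE 0.10, adjusted p = 0.0141), while its partner Uqcrc1 had 0.14 (adjusted p = 0.366). Uqcrfs1, the Rieske iron-sulfur protein, and Uqcr11 fell, and Uqcrq rose, with the block and not without it.

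Complex IV stood above each of the other complexes within each pair of samples, while the order of those others varied. Setting each Restored sample against the Control sample of its line and sgRNA, the median of complex IV was above that of complex V in 9 of 9 pairs, by 0.19 to 0.63 on the log2 scale (mean 0.39 ± 0.13, SD). It was also above that of complex I in 9 of 9, by 0.02 to 0.29 (mean 0.17 ± 0.10). A difference between complexes in the same pair hardly depends on how the samples are scaled. The position against 0 was less regular. The median of complex V was below 0 in 8 pairs and that of complex IV above 0 in 7. The exception for complex V was line 4711-18 with sgPpia#3.2, where it was 0.17.

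**Figure D4:**
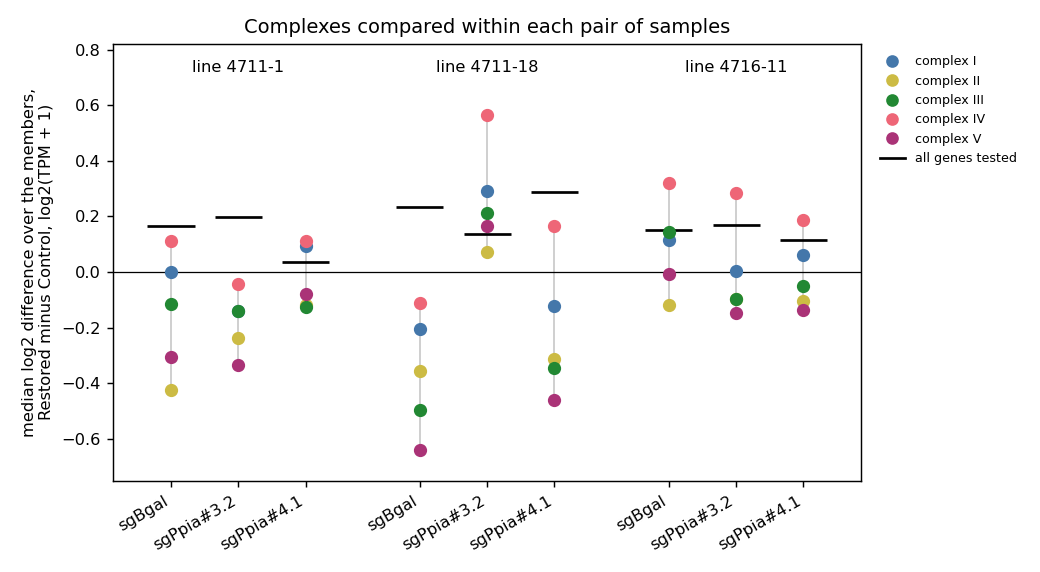
Median log2 difference, Restored minus Control on the log2(TPM + 1) scale, over the members of each complex in each of the 9 pairs of cell line and sgRNA. Colored points are complexes and black bars the median of all genes tested. The point of complex IV is above that of complex V in all 9 pairs, and complex V is above 0 only in line 4711-18 with sgPpia#3.2, at 0.17.

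The second question was whether restoration acted on these genes alike under each sgRNA. With sgBgal no member passed both limits (7.64% of all genes did) and 2 passed the adjusted p alone (13.8%), Atp5a1, which fell by 0.63 (adjusted p = 0.0333), and Cox6b2, which rose by 0.89 (adjusted p = 0.0105). With sgPpia#3.2 only Cox6b2 passed, and it passed both limits with a rise of 1.07 (adjusted p = 0.00396), against 5.75% of all genes for both limits and 10% for the adjusted p. With sgPpia#4.1 none passed both limits (6.09%) and Cox6b2 alone passed the adjusted p (10.3%), with a rise of 0.96 (adjusted p = 0.00763). Cox6b2 had entered the test only through its Restored samples, and with at least 1 TPM required in all samples no member passed with either Ppia sgRNA. At an unadjusted p under 0.05 there were 11, 3 and 5 members with sgBgal, sgPpia#3.2 and sgPpia#4.1, against 28.5%, 23.8% and 24.4% of all genes. With the replicate block the counts at the adjusted p alone were 23, 7 and 13 members, against 42.1%, 34.1% and 35.1% of all genes. The medians of the members were -0.10, 0.06 and -0.06, where those of all genes were 0.19, 0.17 and 0.15. The sign of all 3 rested on line 4711-18, without which they were 0.04, -0.09 and 0.03, and after rescaling they were -0.31, -0.14 and -0.24. Without the sgPpia#3.2 pair of that line Cox6b2 no longer passed both limits with sgPpia#3.2.

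The response with each Ppia sgRNA was then set against that with sgBgal. As interaction terms in limma, no member and none of the 12828 genes passed at the adjusted p, for either sgRNA. At an unadjusted p under 0.05 there was again no member, against 0.242% of all genes for sgPpia#3.2 and 0.14% for sgPpia#4.1. A member's interaction had a median SE of 0.37 (0.20 with the block), so small differences were not detectable with 3 lines. The median of the members' interactions with sgPpia#3.2 was -0.09, 0.59 and -0.14 in lines 4711-1, 4711-18 and 4716-11, and with sgPpia#4.1 0.14, 0.12 and -0.09. The high value of line 4711-18 set the pooled median of 0.15 for sgPpia#3.2, which was -0.13 without that line and 0.01 without its sgPpia#3.2 pair. The last of these fits kept the sgBgal samples of line 4711-18, so the sgRNAs were not compared over the same lines.

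The third question was what the Ppia sgRNAs did within 1 p53 state. Both sgRNAs were compared with the same sgBgal samples, so their values are not independent. No member and none of the 12828 genes passed at the adjusted p in any of the 4 comparisons, where a member's SE had a median of 0.26. In these comparisons 1 member, Cox7a1, reached an unadjusted p under 0.05, with sgPpia#3.2 in Control samples (0.74, SE 0.33, adjusted p = 1.00), beside 2.42% of all genes there, 0.21% with sgPpia#4.1 in Control, 1.2% with sgPpia#3.2 in Restored and 0.53% with sgPpia#4.1 in Restored samples. With the replicate block no member passed the adjusted p in any of them, where 0.0156% of all genes did with sgPpia#3.2 in Control, 0.0078% with sgPpia#3.2 in Restored and none with sgPpia#4.1. At an unadjusted p under 0.05 in that fit there were 8 members with sgPpia#3.2 and 2 with sgPpia#4.1 in Control samples, and 6 and 0 in Restored samples, against 12.7%, 1.26%, 8.64% and 3.31% of all genes.

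The small values of the Ppia comparisons were mostly positive in Restored samples. With sgPpia#3.2 in Restored samples 77 of 82 members (93.9%) were above sgBgal, against 33.7% of all genes, with medians of 0.17 and -0.09. The medians of the members were 0.08, 0.39 and 0.04 in lines 4711-1, 4711-18 and 4716-11, so line 4711-18 gave most of it, and without that line the median was 0.07. With sgPpia#4.1 in Restored samples 66 of 82 (80.5%) were above sgBgal, against 32.4% of all genes, with line medians of 0.06, 0.23 and -0.06, and without line 4711-18 the median was 0.00. In Control samples 49 of 82 members (59.8%, against 36.1% of all genes) were above sgBgal with sgPpia#3.2 (line medians 0.15, -0.24 and 0.18, pooled median 0.03, or 0.14 without the sgPpia#3.2 pair of line 4711-18) and 42 of 82 (51.2%, against 37.1%) with sgPpia#4.1 (line medians -0.10, 0.09 and 0.03). The value of 0.14 comes from a fit that kept the sgBgal samples of line 4711-18, so it mixes line and sgRNA. After rescaling the pooled medians were 0.28 and 0.15 with sgPpia#3.2 and sgPpia#4.1 in Restored samples, from 0.17 and 0.07, and 0.12 and 0.05 in Control samples, from 0.03 and 0.00.

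**Figure D5:**
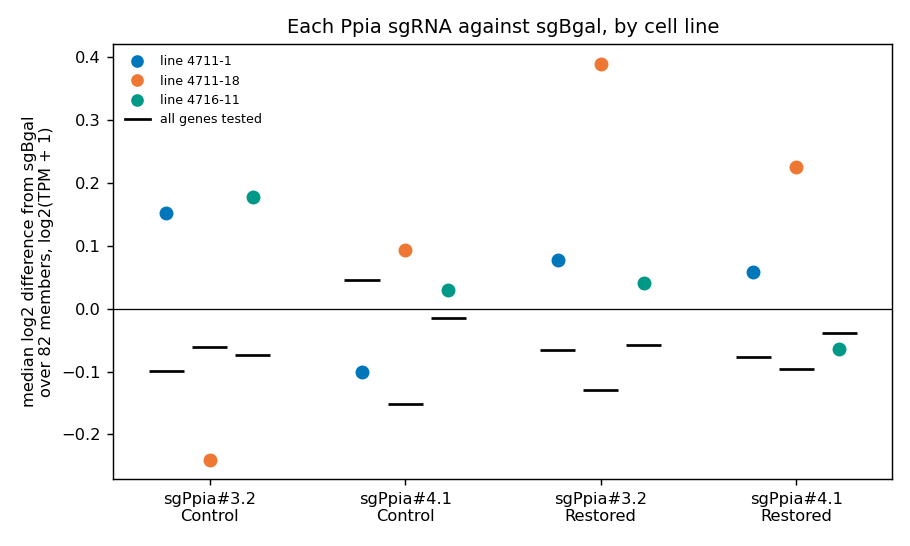
Median log2 difference over the 82 subunits between each Ppia sgRNA and the sgBgal sample of the same cell line and p53 state, on the log2(TPM + 1) scale. Points are cell lines and black bars the median of all genes tested. With sgPpia#3.2 in Restored samples the points lie at 0.08, 0.39 and 0.04, all above their bars, and the highest is line 4711-18.

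The lines differed from each other in level. The log2 range between the mean levels of the 3 lines had a median of 0.51 over the members, and 61 of 82 members were highest in line 4716-11, 19 in 4711-18 and 2 in 4711-1. For 4 members the range was at least 1. Ndufs8 was at a mean of 76.5, 112 and 178 TPM in lines 4711-1, 4711-18 and 4716-11, and Ndufv1, the flavin subunit of complex I, at 174, 211 and 368. Ndufa1, an accessory subunit, was at 87.8, 119 and 259 TPM, and Cox5b, the zinc-binding subunit of complex IV, at 415, 593 and 839.

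Genes that work beside the subunits also moved in both directions when p53 was restored, at the adjusted p alone in the average over sgRNAs. Over all genes, 27.9% were higher and 11.2% lower at that threshold, 44.1% and 19.3% with the block, and 18.1% and 18.9% after rescaling. Of 9 electron carriers and subunits outside the symbol rule, 2 rose and 2 fell (4 and 2 with the block, 1 and 2 after rescaling). Ndufab1, the acyl carrier protein of complex I, rose by 0.51 (0.31 with an adjusted p of 0.126 after rescaling) and Coq10b, a ubiquinone-binding protein, by 0.71, while Cyc1, cytochrome c1 of complex III, fell by 0.44 and Etfb, of the electron transfer flavoprotein, by 0.46. Of 15 complex I assembly factors, 2 rose and 1 fell (6 and 4 with the block, 0 and 2 after rescaling), the last being Ndufaf6 at -0.80. Of 19 complex IV assembly factors, 3 rose and 2 fell (6 and 4 with the block, 1 and 5 after rescaling). Among them the copper chaperones Cox17, which rose by 0.52, and Cox11, by 0.43, lost their calls after rescaling (0.32, adjusted p = 0.0856, and 0.24, adjusted p = 0.0622). Of 4 tested assembly factors each for complexes II and V, 1 rose in either list (4 and 2 with the block, 1 each after rescaling), Sdhaf1 by 0.96 and Tmem70 by 0.61. Of 6 for complex III 1 rose, Lyrm7 by 1.02 (2 rose and 1 fell with the block, 1 and 1 after rescaling). Sco2, a copper-delivery factor known as a p53 target, was listed at 0 in all 18 samples. It shares 1916 bases of the same strand with Tymp, which was at no more than 4.25 TPM in Control and at 4.34 to 6.97 in Restored samples, and reads from the overlap cannot be assigned.

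The same shares of all genes are the background for lists further from the chain. Of 14 genes of the tricarboxylic acid cycle, none rose and 5 fell (2 and 8 with the block, 0 and 6 after rescaling), including Idh2, the mitochondrial NADP-dependent isocitrate dehydrogenase, by 0.72 and Cs, citrate synthase, by 0.20. Of 78 proteins of the mitochondrial ribosome, none rose and 11 fell (7 and 34 with the block, 0 and 29 after rescaling), with a median of -0.15. Of 11 genes of ubiquinone synthesis, none rose and 2 fell (1 and 5 with the block, 0 and 5 after rescaling), Pdss1 by 1.12 and Coq9 by 0.30. Of 13 regulators of mitochondrial genes, 4 rose and none fell (7 and 1 with the block, 3 and 1 after rescaling). They were Esrra, the estrogen-related receptor α, by 1.26, Ppargc1a, the coactivator PGC-1α, by 0.84, Gabpb1 by 0.72 and Tfam, the factor of mitochondrial DNA transcription, by 0.26 (0.07 with an adjusted p of 0.614 after rescaling), while Nrf1 had 0.00. Esrra was at 63.8 to 136 TPM in Control and at 210 to 288 in Restored samples, without overlap. Of all genes tested, 11.2% did not overlap, and 8.12% had every Restored sample above every Control sample. At the adjusted p alone 27.9% of all genes were higher.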

How the data were processed

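RNA was sequenced from 18 samples, 3 cell lines in each of 6 conditions. The authors deposited 1 table of TPM per gene, a unit scaled to transcript length and to the same total in every sample, which keeps no sequencing depth, so no counting interval is given and the number of lines sets the precision. Per the labels, bcl2fastq 2.17 and HISAT2 were among the tools, and mm10 and GRCm39 among the builds. Which aligner, quantifier and genome build made this table, and whether strand was used, is not given in the sources used here. Overlapping genes and copies of 1 gene are therefore uncertain.

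Values were taken as log2(TPM + 1), and 12828 genes that reached 1 TPM in 3 or more samples were tested. A mean per condition was fitted over all 18 samples with limma 3.58.1 (R 4.3.3), with Benjamini-Hochberg adjustment over all genes, and fold changes are on that scale. Genes passed at an adjusted p under 0.05 and a log2 fold change of 1 or more in either direction, or, as an alternative, at the adjusted p alone. An exact permutation test of 3 against 3 cannot go below p = 0.1 and was not used. The p-values measure the spread between these samples. In the average over sgRNAs the 3 samples of a line in each p53 state enter as separate samples. There the median SE of a member was 0.15, against 0.26 with 1 sgRNA. The n of 9 and the 9 pairs likewise come from 3 lines and are not 9 independent replicates. Neither fit let the response to restoration differ between lines. Deviations from the condition means were correlated between samples of 1 line (mean r 0.73 over 45 pairs, lowest 0.58), so a fit with the line as a block (replicate block) is given beside the results it changes. The script was tested on simulated data. Figures and summaries were made with Python 3.11.15.

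Subunits were chosen by symbol and level. Named genes were those called in any comparison, the 2 members with the largest rise and the 2 with the largest fall, the tissue isoform groups, the subunit c genes and the highest member of each complex. Some of the items under this rule and in the marker lists are not reported here. The members and all gene lists were chosen with earlier results of these data known. Neighbouring and overlapping genes come from GENCODE vM21, on GRCm38. Marker lists not described with the results were low: the 7 fibroblast markers were under 1 TPM in every sample, as were 4 of 5 endothelial markers, whose sum was 0.20 to 1.61 TPM in Control and 0.59 to 1.56 in Restored samples.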

Additional observations from a re-analysis of the deposited data

How the results depend on the processing

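None of the 12 called members reversed its direction under any alternative, and the counts of the Ppia comparisons and the interactions stayed at 0 in all of them. The counts of restoration depended on the settings, and the cause was not tested. Averaged over sgRNAs, the count of members past both limits (0) was 1 with a pseudocount of 0.1 TPM and 0 to 1 with each line left out. At the adjusted p alone it was 12 (39.1% of all genes). It became 19 with rescaling (18.1% of all genes higher and 18.9% lower), 39 with the replicate block (63.4%) and 45 with both (30.4% higher and 30.9% lower). It was 4 to 13 with samples left out (6 without line 4711-1, 4 without 4711-18, 8 without 4716-11). With sgBgal it was 0 for both limits, 1 with a pseudocount of 0.1, 1 with block and rescaling and 0 to 1 with a line left out; at the adjusted p alone it was 2, then 4 with rescaling, 1 with at least 1 TPM in all samples, 23 with the block, 33 with both, 0 in a fit of the compared groups only and 0 to 2 with samples left out (0 to 1 without a line, 2 without the sgPpia#3.2 pair of line 4711-18). With sgPpia#3.2 it was 1 for both limits and 0 with at least 1 TPM in all samples (which removes Cox6b2), 0 in the compared groups only and 0 to 1 with a line left out; at the adjusted p alone 1, then 0, 7 with the block, 11 with both, 0 and 0 to 1. With sgPpia#4.1 it was 0 for both limits and 1 with a pseudocount of 0.1; at the adjusted p alone 1, then 2 with rescaling, 0 with at least 1 TPM in all samples, 2 with no filter, 13 with the block, 18 with both, 2 with trended, robust variances and 0 to 1 with a line left out. With the block, 42.1%, 34.1% and 35.1% of all genes passed the adjusted p with sgBgal, sgPpia#3.2 and sgPpia#4.1, against 13.8%, 10% and 10.3% without it. With both, 2423 of the 12828 genes were higher and 2522 lower with sgBgal, 2077 and 2049 with sgPpia#3.2, and 2114 and 2143 with sgPpia#4.1. The counts of members with the block grew as those of all genes did. Rescaling moved the members' median from -0.05 to -0.25 for the average, from -0.10 to -0.31 with sgBgal, from 0.06 to -0.14 with sgPpia#3.2, which changes its sign, and from -0.06 to -0.24 with sgPpia#4.1, with or without the block. Atp5a1 and Ndufb6 passed in all 11 alternatives, Cox6b2 is not counted here because only its Restored samples met the minimum, and the other 8 besides Cox4i1 passed in 8 to 10 of 11, while Cox4i1 passed in 5 of 11 and was lost, among others, without the sgPpia#3.2 pair of line 4711-18 (0.43, adjusted p = 0.0917 in limma). The counts at the adjusted p alone under each setting, and the fits without that pair, were chosen after seeing the data.

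Depth is unknown, a line had 1 sample per condition, and members at low TPM such as Cox6b2, Cox4i2 and Cox6a2 rest on little signal.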
